A study of Mus musculus with 9 samples.

Results

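H1f2, which encodes the linker histone H1.2, and H2bc4, which encodes an H2B core histone, are 2 genes of the replication-dependent histone class. They were picked by symbol from the 15446 uniquely named genes of an expression table of ROC6, a murine oral squamous cell line, after their levels in these libraries were known. Poly(A) RNA was sequenced in 3 groups of 3 libraries: Csmd3 knockout cells made with the first guide (guide 1), Csmd3 knockout cells made with the other guide (guide 2), and control cells without the knockout, labelled WT Control. All groups grew in DMEM with serum and antibiotics. The series text numbers the knockouts as clones, 1 per guide, so guide and clone cannot be told apart. Levels are FPKM, fragments scaled to transcript length and library size. A comparison of FPKM between genes also depends on the annotated length, on how reads were assigned and on the poly(A) selection. In bulk RNA, fewer cells with a transcript and less of it per cell cannot be told apart.

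Histones package DNA into nucleosomes. H2B is 1 of the core proteins around which the DNA winds, and H1 binds the DNA where it enters and leaves the core. Most copies of the replication-dependent genes are transcribed while DNA is copied, and their mRNAs end in a short stem-loop instead of a poly(A) tail. Selection with oligo-dT therefore captures little of them. Some of these genes also give longer polyadenylated or spliced transcripts, which are best known from cells that have stopped dividing or are differentiating. Variant histones such as H1.0 and H3.3 come from genes with ordinary polyadenylated mRNAs.

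The sequences at the 3′ ends of the gene models bear on what a poly(A) library can hold. They were taken by gene from the GENCODE M21 transcripts of GRCm38, since the sources used here do not name the build or annotation behind the deposited values. The following stem-loops, written 5′ to 3′ as DNA with the loop and stem in capitals, come from H1f2, from H4c9, the H4 gene nearest to it in level, and from H2bc8, a second H2B gene.
H1f2 stem-loop: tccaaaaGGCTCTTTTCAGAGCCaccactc
H4c9 stem-loop: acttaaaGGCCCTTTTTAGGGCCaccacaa
H2bc8 stem-loop: acccaaaGGCTCTTTTCAGAGCCacccata
In H1f2 the stem-loop starts 28 bases after the last amino acid codon, with the stop codon counted in, and the annotated transcript runs on for another 840 bases. In H4c9 it runs on for 330 bases, and in H2bc8 for 155.

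H2bc4 is built differently. Its annotated transcript has 2 exons, and the junction lies 12 bases after the last amino acid codon, with the stop codon counted in. An intron of 7554 bases separates exon 1 from a second exon of 733 bases, and the spliced transcript holds no match to the stem-loop pattern. Only the longest protein-coding model of each gene was searched. The genomic sequence just after exon 1, which an unspliced H2bc4 transcript would hold, was not searched. The junction is shown with the start of exon 2 in capitals.
H2bc4 exon junction: aagtgatcctgccaaGAGGAGCAGACCTGA
Poly(A) signals near the ends of the 3 most abundant genes of the class are shown next, with the signal hexamer in capitals.
H1f2 poly(A) signal: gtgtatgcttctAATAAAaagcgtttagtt
H4c9 poly(A) signal: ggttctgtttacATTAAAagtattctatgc
H2bc4 poly(A) signal: tgatgtatatatAATAAAtgtcatgtaaag
The signal begins 26 bases before the annotated end in H1f2 and 21 in H4c9. In H2bc4 it lies 447 bases before the GENCODE end, but 18 bases before the last base of the RefSeq gene model on GRCm38.p6. A match of letters is a description and does not show that a site is used.

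H1f2 was low in the control and several times higher with either guide. Its levels were 3.54, 2.79 and 2.25 FPKM in the control libraries, 20.2, 20.2 and 21.3 in guide 1 cells, and 21.7, 23.5 and 19.9 in guide 2 cells. All 6 knockout libraries lay above all 3 controls, and the guide groups overlapped each other. The mean of 3 libraries was 2.86 ± 0.644 FPKM (SD, n = 3) for the control, 20.6 ± 0.642 for guide 1 and 21.7 ± 1.80 for guide 2, so the ratios to the control were 7.19 and 7.58. On the scale of log2(FPKM + 1), which understates the change of low genes, the differences from the control were 2.50 for guide 1 and 2.56 for guide 2 (model SE 0.11 for each).

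H2bc4 also stood higher in both knockouts, but to a different extent in each. The control libraries were at 4.01, 4.22 and 3.31 FPKM, the guide 1 libraries at 24.9, 24.4 and 28.8, and the guide 2 libraries at 10.6, 11.9 and 10.3. None of the 3 groups overlapped another. Group means were 3.85 ± 0.477 FPKM in the control, 26.0 ± 2.40 in guide 1 cells and 10.9 ± 0.854 in guide 2 cells (SD, n = 3). The ratios to the control were 6.76 in guide 1 cells and 2.84 in guide 2 cells, and the log2 differences 2.48 and 1.30 (model SE 0.09 for each). Because both genes were chosen with their differences from the control in view, these are given without a test. For the same reason nothing is read from the fact that both genes had all knockout libraries above the controls, which held for 24.7% of the 6965 genes that averaged at least 1 FPKM.

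**Figure D1:**
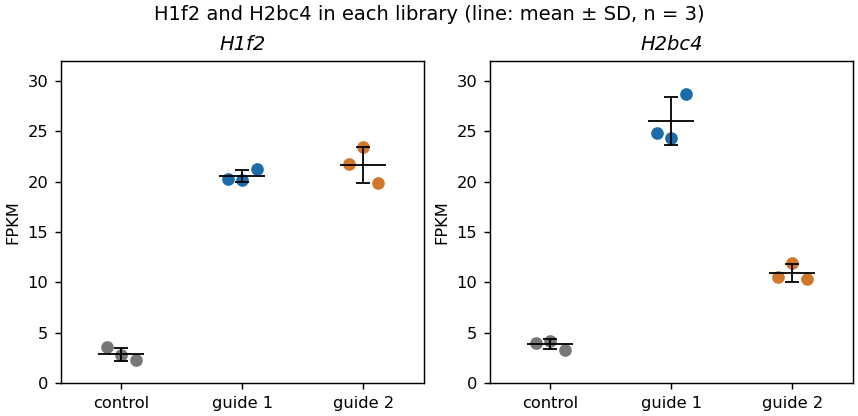
FPKM of H1f2 (left) and H2bc4 (right) in each of the 9 libraries by group; points are libraries, and the line and bar are the mean and SD of 3. H1f2 sits near 21 FPKM with both guides, while H2bc4 is at 26.0 in guide 1 cells and 10.9 in guide 2 cells.

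The guides were also compared with each other. The levels of both genes in all groups were known when they were chosen, so these differences too are a description with no test. In the limma model over all 9 libraries H2bc4 was lower for guide 2 than for guide 1 by 1.18 log2 units (SE 0.09). In FPKM its guide 1 level was 2.38 times that of guide 2. For H1f2 the difference of guide 2 minus guide 1 was 0.07 (SE 0.11). Between the guides 54.5% of all tested genes passed at an adjusted p under 0.05 (limma, Benjamini-Hochberg over 6965 genes), 31.2% as higher and 23.3% as lower for guide 2, and the 2 groups of libraries did not overlap in 61.5% of them, so differences between the guides were common. The ratio of H2bc4 to H1f2 was 1.14, 1.51 and 1.47 in the control libraries, 1.23, 1.21 and 1.35 in guide 1 cells, and 0.486, 0.508 and 0.521 in guide 2 cells. Guide 1 lay within the range of the control, and guide 2 lay below both groups. Nothing in the labels says that replicates came from separate cultures, so the tests given below for other genes measure the spread between libraries, which may be technical.

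Each gene was set against the other genes of its family, by the sum of FPKM over the family's rows. Of 8 linker histone genes with a row, H1f2 made up 1.88 ± 0.368% of the sum in the control, 14.05 ± 0.452% in guide 1 cells and 14.4 ± 0.714% in guide 2 cells (SD, n = 3). The whole linker histone sum was 151 ± 4.46 FPKM in the control, 147 ± 6.02 in guide 1 cells and 151 ± 10.9 in guide 2 cells, and the groups overlapped. The sum without H1f2 was 149 ± 3.83 FPKM in the control and lower with the guides, at 126 ± 5.63 and 129 ± 9.51. Most of it came from the variants H1f0 and H1f10. H1f10 fell from 59.6 ± 1.31 FPKM to 46.8 ± 2.51 in guide 1 cells and 42.6 ± 3.53 in guide 2 cells (limma adjusted p = 0.000693 and 7.94e-05). H1f0, the linker histone of non-dividing cells, stood at 88.1 ± 3.99, 78.4 ± 5.52 and 85.6 ± 5.79 FPKM, and its mean over both guides did not pass (limma adjusted p = 0.108). It was called lower for guide 1 alone (limma adjusted p = 0.0426), a call lost in 9 alternative fits, and not for guide 2 (limma adjusted p = 0.589).

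In the H2B family H2bc4 was already the largest of 14 rows in the control. It held 42.9 ± 4.32% of the H2B sum there, 72.9 ± 2.22% in guide 1 cells and 64.6 ± 1.75% in guide 2 cells. Unlike the linker histones, the H2B sum itself was higher, at 9.10 ± 1.92 FPKM in the control, 35.7 ± 3.05 in guide 1 cells and 16.9 ± 0.860 in guide 2 cells. Without H2bc4 the sums were 5.26 ± 1.45, 9.69 ± 1.09 and 5.97 ± 0.065 FPKM. The libraries were selected for poly(A). The shares in both families are therefore of the RNA that the selection let through, not of all linker histone or H2B mRNA.

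**Figure D2:**
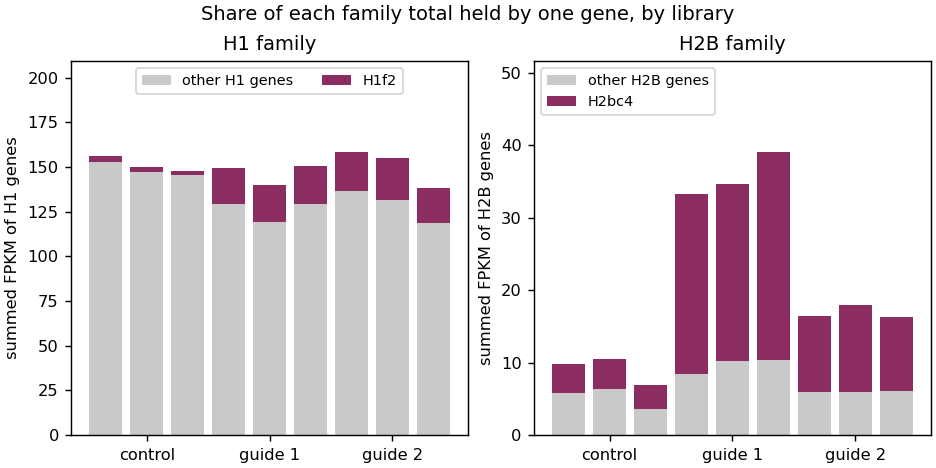
Summed FPKM of the linker histone genes (left) and of the H2B genes (right) in each library, with H1f2 and H2bc4 in colour and all other rows of the family in grey. In this poly(A)-selected RNA, H1f2 grows from 1.88% to about 14% of a sum that stays near 150 FPKM. H2bc4 and the H2B sum grow together.

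Of 65 gene symbols of the class in RefSeq, 44 had a row, and 4 further symbols had one too, which makes 48 rows with the pair. Of the other 46, only 6 reached a mean of 1 FPKM, and the remaining 40 had a median of 0.293 FPKM and a highest mean of 0.988. H3c8 and H4c12 were under 1 FPKM in the control and entered the 6 only through the knockouts, so no count or median over the 6 is read. H2bc12, at a mean of 1.04 FPKM, reached 1 FPKM only with its control libraries, so its call is not read either. Of the rest, H4c9 and H2bc8 passed as higher and H3c3 as lower for the pooled guides. There 37.8% of all tested genes passed as higher and 43.3% as lower. H4c9 and H2bc8 also passed for each guide by itself, where 30.2% of tested genes passed as higher and 37.9% as lower for guide 1, and 31.9% and 33.5% for guide 2.

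H4c9, which encodes histone H4, was at 5.45, 6.23 and 5.61 FPKM in the control libraries, 17.3, 17.7 and 15.6 in guide 1 cells, and 21.6, 18.7 and 20.1 in guide 2 cells. All knockout libraries exceeded all controls, by log2 differences of 1.40 and 1.64 (SE 0.07, limma adjusted p = 4.75e-08 and 1.96e-08). Guide 2 was also above guide 1 by 0.24 (limma adjusted p = 0.0146). That call was lost without guide 1 replicate 3 (limma adjusted p = 0.0598) and without guide 2 replicate 1 (limma adjusted p = 0.0543). H2bc8, like H2bc4 an H2B gene, was at 1.28, 1.43 and 1.00 FPKM in the control, 4.76, 5.82 and 7.29 in guide 1 cells, and 3.07, 3.03 and 2.66 in guide 2 cells. Its 3 groups did not overlap either, and guide 2 was below guide 1 by 0.81 log2 units (SE 0.12, limma adjusted p = 0.00031), as in H2bc4. The 2 H2B genes share sequence, however, so reads of one could be assigned to the other.

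H3c8, an H3 gene, stood at 0.497 ± 0.0238 FPKM in the control, 2.22 ± 0.303 for guide 1 and 1.80 ± 0.150 for guide 2. H4c12, a further H4 gene, stood at 0.865 ± 0.447, 2.03 ± 0.446 and 2.34 ± 0.381 FPKM. Both are given without a test, since the filter let them in where they were high. H3c3 and H2bc12 had lower means in both knockouts than in the control. H3c3 stood at 3.70 ± 0.708 FPKM in the control, 3.66 ± 0.963 in guide 1 cells and 1.78 ± 0.724 in guide 2 cells, and its call for the pooled guides (limma adjusted p = 0.0492) was lost in 10 alternative fits. The guide 2 libraries of H3c3 all lay below the controls, by a log2 difference of -0.78 (limma adjusted p = 0.0053), and that call held in each alternative in which the gene was tested. H2bc12 stood at 1.39 ± 0.347, 1.08 ± 0.471 and 0.644 ± 0.332 FPKM. Its call as lower (limma adjusted p = 0.0488) was lost in 11 alternative fits. That call is not read, since the gene passed the filter only with its control libraries. In both H3c3 and H2bc12 the 6 knockout libraries together overlapped the controls.

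**Figure D3:**
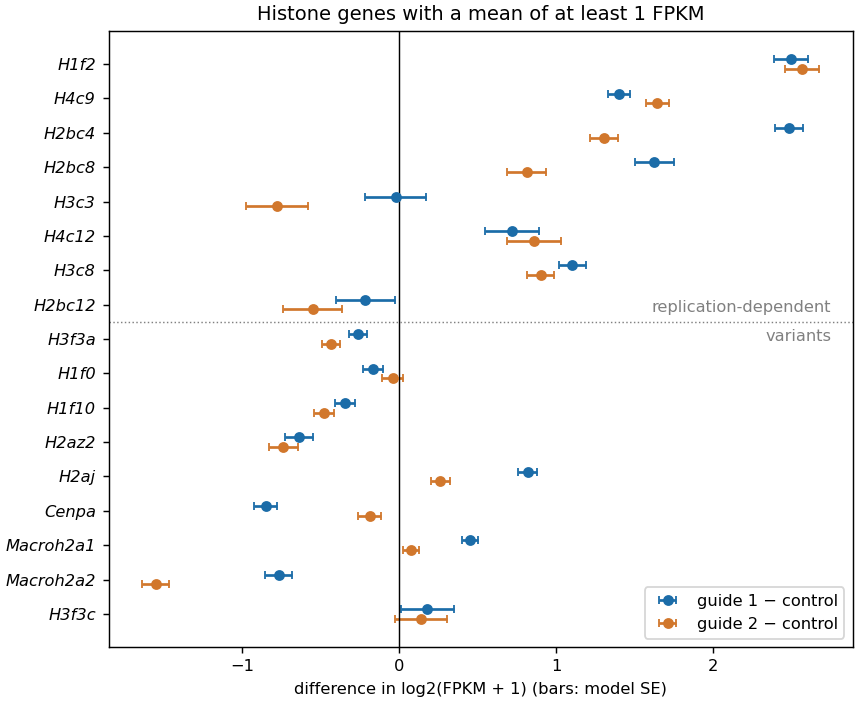
Difference from control in log2(FPKM + 1) for each histone gene with a mean of at least 1 FPKM, with guide 1 and guide 2 as separate points and the model SE as bars. H1f2 and H2bc4 in guide 1 cells lie near 2.5, and most variant genes lie below 0.

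Among the 40 rows under 1 FPKM both knockout means were above the control in 25 and below in 15, where 44.6% of all rows under the filter were above. All 6 knockout libraries exceeded the controls in 7 of the 40, against 6.63% of such rows. How many fragments stand behind them is unknown.

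The 44 genes with a GENCODE model were then divided by the form of that model, a division made after the values were known and so not tested. A model was called extended where it was spliced or ran more than 100 bases past the stem-loop. A poly(A) signal hexamer within the last 50 bases was found in 8 of the 44 models, so an extended model need not hold one near its end. Of the 19 extended models, which include H1f2, H2bc4, H4c9 and H2bc8, 18 had both knockout means above the control, and H3c6 was the exception. H1f2 and H2bc4 were chosen with their higher levels in the knockouts known, so their place in these counts was fixed beforehand. Of the other 25 models 10 did. Among these 25, 15 ended within 100 bases of the stem-loop, and 7 of the 15 had both means above. The remaining 10 held no stem-loop letters, so how far those genes run past one is unknown, and 3 of the 10 had both means above. Over all 15446 rows the share was 45.6%. With a limit of 50 bases the counts were 19 of 22 and 9 of 22, and with 200 bases 16 of 17 and 12 of 27. At the limit of 100 bases, all 6 knockout libraries lay above the controls in 8 of the 19 extended models. H1f2 and H2bc4 are among these 8. The same held in 4 of the 25 others, in 24.7% of tested genes and in 6.63% of rows under the filter. Only 4 of the 19 and 4 of the 25 averaged at least 1 FPKM. The extended models had a median of 0.309 FPKM against 0.402 for the others, and the 3 most abundant genes were all extended. FPKM divides by the length of the model, so the level of a gene depends on whether the annotation includes the extension.

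**Figure D4:**
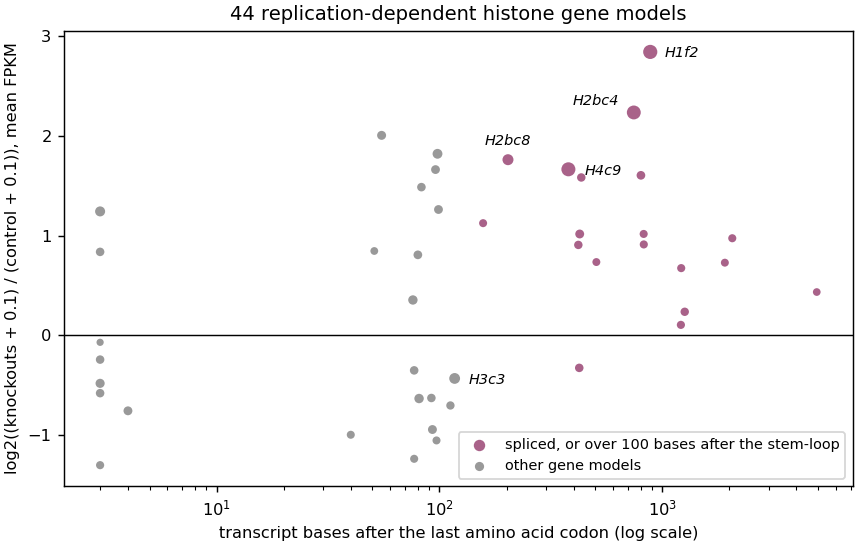
Length of the annotated transcript after the last amino acid codon (log scale) against the log2 ratio of mean FPKM in the knockouts to the control, with 0.1 FPKM added to both, for 44 histone genes; larger points have higher mean FPKM. Of the 19 extended models 18 have both knockout means above the control, against 10 of the 25 others. All 6 knockout libraries lie above the controls in 8 of the 19 and in 4 of the 25. Nearly all rows of the table have both guides on a common side of the control. The 19 include H1f2 and H2bc4, which were chosen with their higher levels known.

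How far reads can tell these genes apart differs between them. In the H1f2 transcript 8.54% of 50-base windows and 5.07% of 100-base windows occur in a transcript of another gene. In H2bc4 the shares are 30.1% and 25.4%, in H4c9 28.9% and 15.1%, and in H2bc8 49.7% and 44.9%. A 50-base window was shared with 2 other genes for H1f2, 100 for H2bc4, 10 for H4c9 and 14 for H2bc8. The values of H2bc4, H4c9 and H2bc8 are therefore less certain than those of H1f2. How the authors treated reads with several matches is not stated. No other gene model overlaps H1f2 or H2bc4.

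The promoter of H1f2, from RefSeq's promoter set, is shown because H1f2 stood farthest above the control among the tested histone genes. It spans chr13:23738557-23738806 on the plus strand of GRCm38.p6 and ends just before the RefSeq transcript start. Capitals mark the letters of the H1 box (AAACACAA), a CCAAT box (CCAAT) and a TATA-like run (TATATA, found in overlapping copies).
H1f2 promoter: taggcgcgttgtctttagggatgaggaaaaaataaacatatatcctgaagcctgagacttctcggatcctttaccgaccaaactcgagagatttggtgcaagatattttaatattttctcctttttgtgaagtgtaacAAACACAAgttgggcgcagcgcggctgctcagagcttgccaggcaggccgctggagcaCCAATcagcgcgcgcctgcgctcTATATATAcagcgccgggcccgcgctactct
Searched on both strands of the 250 bases before each start, AAACACAA was present in 1.67% of 32851 promoters and in 6 of 59 promoters of the class. CCAAT was present in 33.8% of all promoters and in 48 of the 59, and TATATA in 5.25% and in 14. The canonical TATAAA and the octamer ATTTGCAT, known from H2B promoters, had no match in H1f2, and were present in 28 and 12 of the 59. H2bc4 was not among the promoters searched.

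The variant histones, whose mRNAs carry poly(A) tails, moved in both directions. Of 16 listed genes 10 had a row and 9 were tested, of which 2 passed as higher and 5 as lower for the pooled guides, with a median log2 difference of -0.35. Over all tested genes 37.8% passed as higher and 43.3% as lower, with a median of -0.08. Macroh2a2, a macroH2A variant, fell from 26.5 ± 0.726 FPKM to 15.2 ± 1.55 in guide 1 cells and 8.44 ± 0.993 in guide 2 cells (limma adjusted p = 1.85e-05 and 1.21e-07). Its relative Macroh2a1 rose in guide 1 cells from 14.6 ± 0.706 to 20.3 ± 0.376 FPKM (limma adjusted p = 1.92e-05) and was at 15.5 ± 0.661 in guide 2 cells (limma adjusted p = 0.203, not a call). H2az2, an H2A.Z gene, fell from 51.7 ± 1.08 FPKM to 33.0 ± 3.77 and 30.7 ± 3.54 (limma adjusted p = 1.89e-05 for the pooled guides), and H3f3a, which encodes H3.3, from 124 ± 5.72 to 103 ± 4.84 and 91.5 ± 5.19 (limma adjusted p = 9.06e-05).

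H2aj, an H2A variant gene, was the other variant called higher, with 20.5, 18.3 and 18.7 FPKM in the control, 33.7, 36.1 and 33.8 in guide 1 cells, and 24.6, 21.8 and 23.2 in guide 2 cells. Its 3 groups did not overlap, and guide 2 was below guide 1 by 0.56 log2 units (SE 0.06, limma adjusted p = 2.88e-05). Cenpa, the centromeric H3 variant, fell in guide 1 cells from 30.8 ± 3.27 FPKM to 16.6 ± 0.781 (limma adjusted p = 2.31e-06) and was at 26.8 ± 1.09 in guide 2 cells, a call (limma adjusted p = 0.0408) that was lost in 10 alternative fits. H3f3c was at 2.45 ± 0.320, 2.91 ± 0.50 and 2.88 ± 1.05 FPKM and did not pass (limma adjusted p = 0.315 for the pooled guides).

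Genes that make and process histone mRNA moved in both directions. Of 31 listed genes 18 had a row and 17 were tested, of which 7 passed as higher, 6 as lower and 4 did not pass (median log2 difference 0.17), near the 37.8% and 43.3% of all tested genes. Slbp, whose product binds the stem-loop, and Npat, the activator of histone gene transcription, had no row, which says nothing of their expression. Lsm10 and Lsm11 encode proteins of the U7 particle, which directs the cut after the stem-loop. Lsm10 rose from 8.63 ± 0.474 FPKM to 13.5 ± 1.28 in guide 1 cells and 11.5 ± 0.658 in guide 2 cells (limma adjusted p = 5.09e-05 for the pooled guides), while Lsm11 fell from 3.01 ± 0.111 to 2.37 ± 0.182 and 2.43 ± 0.102 (limma adjusted p = 0.00278). Nfya, a subunit of the CCAAT-binding factor NF-Y, was at 9.99 ± 1.17, 18.3 ± 0.502 and 11.4 ± 0.321 FPKM (limma adjusted p = 3.2e-05), and Casp8ap2, needed for histone gene expression in S phase, fell from 8.21 ± 0.225 to 5.66 ± 0.659 and 6.74 ± 0.194 (limma adjusted p = 0.000344).

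Of 27 listed histone chaperones 15 were tested, and 8 passed as higher and 3 as lower (median log2 difference 0.14), against 37.8% and 43.3% of all tested genes. Chaf1a and Chaf1b, subunits of the CAF-1 complex that deposits histones on new DNA, rose from 17.5 ± 1.74 to 25.4 ± 0.991 and 21.5 ± 0.253 FPKM and from 7.76 ± 0.358 to 12.3 ± 0.508 and 10.1 ± 0.406 FPKM in the 2 guide groups. Hjurp, the chaperone of the Cenpa product, was at 45.5 ± 1.73 FPKM in the control, 27.6 ± 1.18 in guide 1 cells and 45.0 ± 4.87 in guide 2 cells, and Npm3, a nucleoplasmin, at 48.1 ± 7.89, 34.1 ± 3.57 and 38.3 ± 6.0 FPKM. Both were called lower for the pooled guides (limma adjusted p = 0.000444 and 0.0085). Each was called lower for guide 1 (limma adjusted p = 1.13e-05 and 0.00831) and neither for guide 2 (limma adjusted p = 0.808 and 0.0524).

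Histone mRNA is tied to S phase, so genes of G1/S and DNA replication are given beside H1f2 and H2bc4. Of 40 listed genes 25 were tested, and 11 passed as higher, 11 as lower and 3 did not pass, with a median log2 difference of 0.03, near the 37.8% and 43.3% of all tested genes. Mcm4, a subunit of the replicative helicase, rose from 54.0 ± 3.61 FPKM to 79.6 ± 6.67 and 87.6 ± 1.85, and Uhrf1, which maintains DNA methylation after replication, from 53.5 ± 4.92 to 80.5 ± 2.03 and 73.2 ± 4.12. Tyms, the thymidylate synthase, fell from 26.6 ± 0.580 to 12.4 ± 0.874 and 23.1 ± 1.23 FPKM, and Rfc5, a subunit of the clamp loader, from 33.5 ± 0.622 to 15.9 ± 0.200 and 29.1 ± 1.10. All 4 of these genes passed for the pooled guides. The part of the cell cycle in the levels of H1f2 and H2bc4 was not tested.

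RNAs that lack a poly(A) tail are given beside the histones, since oligo-dT does not bind them. Of 90 rows of small nucleolar and similar RNAs, 11 were tested, and 4 passed as higher, 1 as lower and 6 did not pass for the pooled guides, against 37.8% higher and 43.3% lower of all tested genes. Their summed level was 31.2 to 49.3 FPKM in the control libraries, 44.1 to 49.6 in guide 1 cells and 36.1 to 48.2 in guide 2 cells, and these ranges overlap. Snord73b, a small nucleolar RNA, rose from 1.25 ± 0.511 FPKM to 2.38 ± 0.751 and 3.54 ± 0.488, and Snora2b was at 1.19 ± 0.755, 2.54 ± 0.266 and 2.12 ± 0.285 FPKM. Rpph1, the RNA of ribonuclease P, was at 2.47 ± 2.55, 0.291 ± 0.142 and 0.665 ± 0.496 FPKM. It passed the filter only through the control, where replicate 2 stood at 5.4 FPKM. Its call as lower, the 1 counted above, is therefore not read, and nothing is drawn from that count. Carry-over of RNA without a tail as a part of the histone levels was not tested.

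Among 4350 genes with a mean of at least 5 FPKM, predicted genes and pseudogenes passed over, those most like H1f2 over the 9 libraries, by Pearson's r of log2(FPKM + 1), were Actg2, Hcfc1r1, Ehd2, Ptgs1 and Grem1, with r between 0.992 and 0.996. Ptgs1, a prostaglandin synthase, stood at 2.92, 18.6 and 19.2 FPKM in control, guide 1 and guide 2. Those most like H2bc4 included Itgb5, Rab12, Tnfaip2 and Yaf2, with r between 0.995 and 0.997, and Itgb5, an integrin subunit, stood at 61.2, 161 and 96.3 FPKM. Between H1f2 and H2bc4 r was 0.867. H1f2 was closer to H4c9 (0.979) than to H2bc8 (0.839), and H2bc4 closer to H2bc8 (0.988) than to H4c9 (0.795). All of these values rest on the same 9 libraries in 3 groups, so they mostly describe 3 group means and carry no test.

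Several facts of the whole table limit these results. The 9 library sums lay between 162625 and 168620 FPKM, and read depth is unknown. In 7051 uniquely named rows both knockout means were above the control and in 8390 both were below, which leaves 5 rows, so rows with opposite directions are nearly absent, and genes without a row cannot be counted. Csmd3 was not analysed here, and the knockout labels were not checked against it. Of 12 squamous epithelial markers 4 had a row, with Perp, a desmosomal membrane protein, at 79.1 FPKM in the control, 105 in guide 1 cells and 83.4 in guide 2 cells. Pkp1, a desmosomal plaque protein, had another order, at 1.07, 4.36 and 9.10 FPKM, and Krt15 was at 0, 0.0473 and 0.735. The 4 summed to 77.0 to 85.1 FPKM in control libraries, 107 to 115 for guide 1 and 91.6 to 96.8 for guide 2, and the part of this shift in the histone levels was not tested. Markers of fibroblasts, leukocytes and endothelium had 1, 2 and 1 rows, and no such list summed to more than 2.67 FPKM in a library. These too were higher in knockout groups, with Cd68 (leukocytes) at 0.652, 1.35 and 2.16 FPKM in control, guide 1 and guide 2, Lyz2 (leukocytes) at 0, 0.0231 and 0.123, Kdr (endothelium) at 0.0050, 0.667 and 0.0569, and Col1a2 (fibroblasts) at 0.0139, 0.0307 and 0.827. Their part in the histone levels was not tested.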

How the data were processed

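Stranded poly(A) libraries were made from ROC6 cells, per the labels' protocols, and groups and replicate numbers were read from the sample titles. The values are FPKM, which the authors deposited in 1 table, per the file headers. Its name refers to common DEGs (differentially expressed genes) of knockout against control, and how its rows were chosen is not known here. Shares given for all rows or all tested genes are therefore shares of this table. The headers of the control columns carry the tag g1, whose meaning is not known here. Per the submitters' processing notes, the tools included cutadapt, FastQC, HISAT2 and StringTie, with versions, build and annotation not given in the sources used here. Of 15620 rows, 174 that share 62 symbols were left out. No 2 libraries were identical.

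limma 3.58.1 (R 4.3.3) was fitted to log2(FPKM + 1) over all 9 libraries, with a prior variance that follows the mean, for the 6965 genes that average at least 1 FPKM. A gene was called where the p adjusted by Benjamini-Hochberg was below 0.05. The code was tested on simulated data. Depth cannot be had from FPKM here, so no count model was used.

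H1f2 and H2bc4, the gene lists and the naming rule were chosen with earlier results of these data known. The planned tests between the guides are therefore not given for H1f2 and H2bc4. Named are all histone genes that average 1 FPKM or more, the 2 called genes of largest fold in each direction from every other list, and the 5 genes most like H1f2 and H2bc4 each, of which 1 is not reported here. Nearly all rows have both guides on a common side of the control, and p-values are not corrected for that. The alternatives tried were another pseudocount (0.1), another low filter (none, or 5 FPKM), quantile normalization, trimmed mean rescaling, the replicate number as a block, an equal prior variance for all genes, a fit of only the libraries compared, and the loss of each library in turn. Keeping repeated symbols was added after seeing the data.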

Additional observations from a re-analysis of the deposited data

Results flagged for a closer look

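Guide 2 cells differed from guide 1 cells in H2bc4 by -1.18 log2 units, a difference known when the gene was chosen. In the test of guide 2 minus guide 1, in which guide and clone cannot be told apart, H2bc8 differed by -0.81 (limma adjusted p = 0.00031), H3c3 by -0.76 (limma adjusted p = 0.00795) and H4c9 by 0.24 (limma adjusted p = 0.0146). Among the variants Macroh2a2 differed by -0.78 (limma adjusted p = 2.93e-05), H2aj by -0.56 (limma adjusted p = 2.88e-05), Macroh2a1 by -0.37 (limma adjusted p = 0.000133) and H3f3a by -0.17 (limma adjusted p = 0.0282), and Cenpa by 0.66 (limma adjusted p = 2.72e-05). The H3f3a call was lost in 5 alternative fits. Of all tested genes 54.5% differed between the guides.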

How the results depend on the processing

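Leaving out single libraries gave differences of guide 2 minus guide 1 of -1.23 to -1.10 for H2bc4 and 0.01 to 0.13 for H1f2. A pseudocount of 0.1 moved the log2 differences from control to 2.83 (guide 1), 2.90 (guide 2) and 2.86 (both) for H1f2 and to 2.73, 1.49 and 2.11 for H2bc4. Histone genes other than these called higher numbered 6 of 15 tested, where 37.8% of all tested genes were called higher. With no filter they were 14 of 56, and with a filter of 5 FPKM 3 of 9. The 6 include H3c8 and H4c12, which the filter let in where they were high, so the count is not read. H3c3 in guide 1 changed sign to 0.0135 under quantile normalization and 0.0277 under trimmed mean rescaling, with a range of -0.16 to 0.14 over left-out libraries. Such ranges also crossed 0 for H1f0 in guide 2 (-0.0866 to 0.0097) and for H3f3c in guide 2 (-0.0732 to 0.27) and between guides (-0.25 to 0.0915). The cause was not tested.

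Replicate numbers were not taken to pair the samples: correlations of same-numbered deviations ran from -0.11 to 0.24 over all groups, those of other pairs from -0.23 to 0.16, and 2 of 9 libraries correlated best with their own number in both other groups. Between guide 1 and guide 2 the same-numbered pairs gave 0.24, 0.02 and 0.21, and the other pairs -0.23 to 0.04. With the replicate number as a block, 5651 genes were called for the mean of both guides against control, where the main fit called 5649. In the blocked fit H2bc4 differed between the guides by -1.18. The H2bc12 call, which is not read here, was lost (limma adjusted p = 0.0507). Depth is unknown, so what it limits cannot be stated.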

Other observations

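H1f2 and H2bc4 lie in the large histone cluster of chromosome 13, 45.9 kb apart in the GENCODE M21 models. H2ac6, an H2A gene whose model lies 250 bases from H2bc4 on the other strand, was at a mean of 0.0719 FPKM in the control, 0.375 in guide 1 cells and 0.0997 in guide 2 cells. H4c3, which lies between H2bc4 and H1f2, was at 0.0590, 0.200 and 0.130 FPKM. H3c3, the gene after H1f2, was at 3.70, 3.66 and 1.78 FPKM. The order of the group means in H2ac6 and H4c3 was that of H2bc4, with guide 1 highest and the control lowest, and in H3c3 it was not. Genes under 1 FPKM were not tested.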
